A study of Mus musculus with 16 samples.

Results

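Forkhead genes encode transcription factors that bind DNA through a winged-helix domain, and 10 of them were followed here in the mouse aorta. The libraries came from male Apoe-/- mice aged 8 to 12 weeks. For 7 days these mice were given saline, or angiotensin II (Ang II) at 1000 ng/kg/min. The 10 genes were chosen by gene symbol: Foxm1, Foxf1, Foxf2, Foxc1, Foxc2, Foxo1, Foxo3, Foxp1, Foxp2 and Foxs1. The deposited table held 44 genes with a forkhead symbol among 54532 genes, so that 34 other forkhead genes could be set beside these 10. With Ang II, Foxm1 was higher in 8 of 8 libraries than in any saline library, Foxf1 was lower in 8 of 8, and Foxp2 fell. The other 7 genes did not pass the test. Of the 15007 genes tested 34.5% passed, 9.54% higher and 24.9% lower, and 8.36% had groups that did not overlap. The share of these forkhead genes that passed was near that of all genes.

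The winged-helix domain places a helix in the major groove of DNA, and family members share the core site that this helix reads. FOXO proteins are held out of the nucleus when insulin or growth factor signals activate AKT, and in the nucleus they drive genes of cell cycle arrest, stress resistance and autophagy. FOXM1 works in the opposite setting: with the MuvB complex it activates genes of mitosis at a promoter element called the cell cycle genes homology region (CHR). FOXF1 and FOXF2 act in mesenchyme downstream of hedgehog signals, FOXC1 and FOXC2 in vessel development and in mural cells, and FOXP proteins recruit corepressors. FOXS1 is known from perivascular cells and neural crest.

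The shared part of the family is visible in the coding sequence of the helix that contacts DNA. The stretches below are 30 bases of coding sequence from GENCODE M21 transcripts for 7 of the genes, and capitals mark the 15 bases that were the same in all 10 genes. They are shown to let the reader see how alike some of the relatives are that are compared later.
Foxf1: TGGaAgAActccgTgCGcCAcAAcCTgtcg
Foxf2: TGGaAgAActccgTgCGcCAcAAcCTctcg
Foxc1: TGGcAgAAcagcaTaCGgCAcAAcCTctcg
Foxc2: TGGcAgAAcagcaTcCGcCAcAAcCTgtca
Foxo3: TGGaAgAActccaTcCGgCAcAAcCTgtcc
Foxm1: TGGaAgAActctaTtCGtCAcAAcCTttct
Foxs1: TGGcAaAAcagcaTcCGcCAtAAcCTgtct
Within this stretch Foxf1 and Foxf2 shared 29 of 30 bases, Foxp1 and Foxp2 29, Foxc1 and Foxc2 26, and Foxo1 and Foxo3 25. The stretch does not single out these pairs, as Foxc2 and Foxs1 shared 27 and Foxo3 and Foxf1 shared 26. Over whole transcripts the longest run of identical bases was 53 between Foxc1 and Foxc2, 41 between Foxf1 and Foxf2, 38 between Foxo1 and Foxo3 and 35 between Foxp1 and Foxp2. Of all 50-base words in the transcripts of these genes, 4 were shared between 2 of them, Foxc1 and Foxc2. Neither the read length nor the treatment of reads with several matches is stated by the labels.

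RNA came from aortas of male Apoe-/- mice, strain C57BL/6j, aged 8 to 12 weeks, with the adventitia taken off. One group of 8 libraries came from mice given saline and the other 8 from mice given Ang II at 1000 ng/kg/min, both by osmotic pump for 7 days. Apoe-/- mice lack apolipoprotein E and have high plasma cholesterol, and Ang II constricts arteries and raises blood pressure. All 16 libraries carry the Apoe-/- label, and no group without that deletion was part of the comparison. Their library names begin with WT, which the labels do not explain. Apoe itself was at 37.0 ± 32.2 FPKM (SD, n = 8) with saline and 12.1 ± 3.24 with Ang II, so the label was not visible as an absence of reads, and whether the transcript is functional was not tested. The labels do not state which mouse each sample came from, so a p-value here speaks of the spread among samples, which may be technical.

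Values are FPKM, reads scaled by transcript length and by library total. The length that returned whole reads was the mean over the annotated transcripts of a gene. It was 1756 bases for Foxp1, with 31 transcripts, and 5844 for Foxc1, with 1. Levels of different genes depend on this length and can be compared only roughly. The totals behind the FPKM ran from 14606867 to 17590092 reads with saline and from 15779148 to 19988713 with Ang II. Smooth muscle was the main tissue by its defining markers, with Acta2 at 6887 ± 1279 FPKM with saline and 5512 ± 869 with Ang II (adjusted p = 0.113). Of 11 smooth muscle markers limma called 6 lower and 0 higher (0 higher also at an unadjusted p under 0.05), with a median log2 fold change of -0.57 against -0.12 for all genes. Of all genes 24.9% were called lower. Myh11, the smooth muscle myosin heavy chain gene, fell from 1561 ± 275 to 852 ± 169 FPKM (-0.88, SE 0.14, adjusted p = 0.000181). The summed markers ran from 19721 to 33490 FPKM with saline and from 11407 to 18526 with Ang II, without overlap. The part of these lower levels in the falls of Foxf1 and Foxp2 was not tested. The lymphatic marker Prox1 was below 0.5 FPKM in every library. Saline 8, Saline 7 and Saline 2 stood apart on the main axis of variation (principal component 1, 46.9% of the variance), at -109, -67.6 and -47.5 against -9.47 or more elsewhere. Calls that change without them are given both ways. In bulk RNA, fewer cells of a type and less RNA per cell cannot be told apart.

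In saline libraries the 10 genes spanned a wide range of levels. Foxp1 had the highest FPKM, at 109 ± 35.5 (SD, n = 8). Foxp2 followed at 43.9 ± 16.04, then Foxc2 at 31.2 ± 6.50, Foxo3 at 27.8 ± 5.94 and Foxc1 at 26.7 ± 6.92. Foxs1 at 16.9 ± 10.5, Foxf1 at 14.7 ± 4.82 and Foxo1 at 6.25 ± 0.890 lay lower. Foxm1 at 1.72 ± 0.639 and Foxf2 at 0.621 ± 0.546 were lowest. The gaps from Foxp1 to Foxp2, Foxf1 to Foxo1, Foxo1 to Foxm1 and Foxm1 to Foxf2 were wider than the larger SD of the pair. The other gaps between neighbours in this order were not. These SDs do not cover the length used for each gene. In Saline 1 Foxc1 had 3120 reads over 5844 bases, and Foxp1 had 3005 over 1756 bases. The order is therefore one of FPKM, not of reads.

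Fold changes were fitted with limma on log2(FPKM + 1) for the 15007 genes with a mean of at least 0.5 FPKM, and called at an adjusted p under 0.05. This scale understates the change of genes near or below 1 FPKM. Of the 10 forkhead genes 9 passed the filter, and of these 1 was called higher, 2 were called lower and 6 were not called. Among all genes tested 34.5% were called, 9.54% higher and 24.9% lower, so 3 calls among 9 is near the background share. The groups did not overlap for 2 of the 9 genes, against 8.36% of all genes. The median change of the 9 was -0.29 and that of all genes -0.12. Scaling libraries by median ratios moved the median of all genes to -0.003 and the calls to 2238 higher and 2114 lower, against 1431 and 3741, so a uniform shift of this size depends on the scaling. Relative to the median gene, Foxm1 changed by 2.01, Foxf1 by -1.33 and Foxp2 by -0.75 on the log2 scale.

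**Figure D1:**
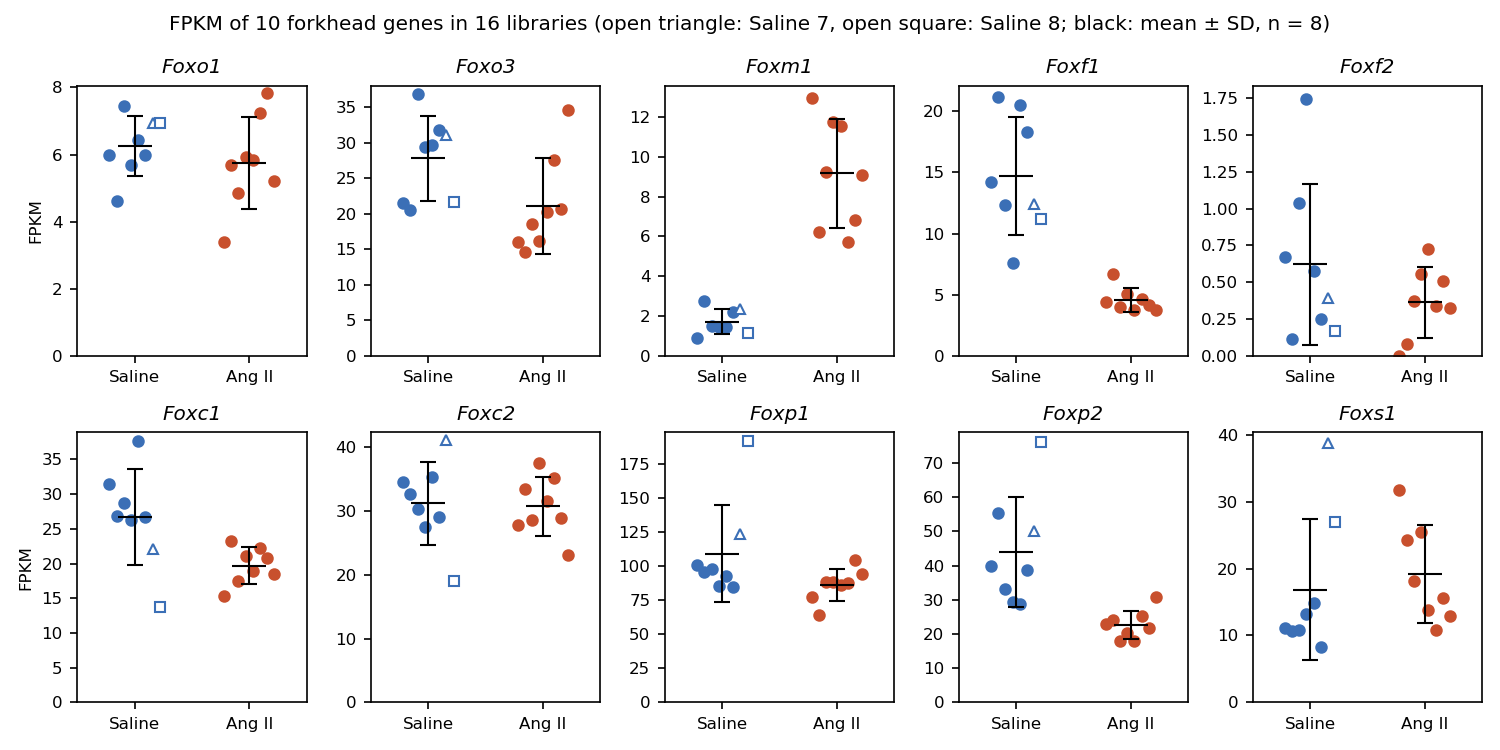
FPKM (vertical axes, each from 0) of the 10 forkhead genes in 8 saline libraries (blue) and 8 Ang II libraries (red), with the mean ± SD in black and Saline 7 and Saline 8 as open symbols. The groups were apart for Foxm1 (0.909 to 2.75 against 5.72 to 13.0) and Foxf1 (7.57 to 21.2 against 3.71 to 6.72), and Saline 8 was the highest library for Foxp1 and Foxp2.

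Foxm1, the forkhead factor of the G2 and M phases, lies at chr6:128362967-128376146 (GRCm38, forward strand). It was at 0.909, 1.47 and 2.75 FPKM in the lowest, median and highest saline library, and at 5.72, 9.17 and 13.0 in the Ang II libraries. Every Ang II library was above every saline library, with Ang II 1 the highest and Ang II 6 the lowest of its group. The level was 9.18 ± 2.74 FPKM with Ang II, and the log2 fold change was 1.89 (SE 0.18, adjusted p = 9.65e-07). The values rest on 23 to 60 reads per saline library and 147 to 305 per Ang II library. The call held under all 27 alternative analyses, with log2 fold changes from 1.82 to 2.57.

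The proteins that work with FOXM1 were followed in a list of 21 partners, covering the MuvB complex, E2F factors, cyclins and their kinases. Of these, 11 rose, 2 fell and 8 did not pass, with a median of 0.43, where 9.54% of all genes were higher and 24.9% lower. Cdk1, the kinase that drives entry into mitosis, rose by 2.33 (SE 0.18, adjusted p = 1.29e-07), from 1.19 ± 0.287 to 10.6 ± 4.53 FPKM. Ccna2, cyclin A2, rose by 2.05 from 1.27 ± 0.461 to 8.50 ± 2.52 FPKM; 12.5% of its exon bases lie in another gene model, so some reads may not be its own. E2f1, a factor of the G1 to S transition, rose by 1.09, from 0.805 ± 0.131 to 2.91 ± 0.857 FPKM. The MuvB subunits Lin37 (-0.66, adjusted p = 0.0369) and Lin52 (-0.34, adjusted p = 0.0443) were called lower. Neither of those calls held under median ratio scaling, where 0 partners were lower, and 0 to 3 were lower when single libraries were left out.

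A list of 28 genes that FOXM1 is known to activate moved mostly one way. With limma 26 rose, 0 fell and 2 did not pass, where 9.54% of all genes were higher. At an unadjusted p under 0.05, 1 was lower, and with the Wilcoxon test and with voom 0 were lower. Their median log2 fold change was 1.72, and the groups did not overlap for 24 of the 28. The mitotic cyclin Ccnb1 rose from 0.427 ± 0.216 to 7.25 ± 2.35 FPKM, a log2 fold change of 2.50 (SE 0.17, adjusted p = 3.54e-08). Cenpe, a kinesin of the kinetochore, rose from 0.579 ± 0.210 to 4.71 ± 1.11 FPKM, by 1.84 (SE 0.14, adjusted p = 5.69e-08). Cdc20, which activates the anaphase-promoting complex, rose from 2.46 ± 0.389 to 13.7 ± 3.80 FPKM, by 2.05 (SE 0.15, adjusted p = 5.69e-08). The 2 genes that did not pass were Cdc25b, a phosphatase that activates CDK1 (-0.35, adjusted p = 0.0566), and Cks1b, a CDK-binding subunit (0.34, adjusted p = 0.126). Cks1b was called higher under median ratio scaling (0.47), under quantile normalization (0.47) and with voom on recovered reads (0.49). Cdc25b was called lower without Saline 3, without Ang II 2 and without Ang II 4, at -0.40, -0.39 and -0.40. Of 13 macrophage and monocyte markers 4 were higher and 0 lower, against 9.54% of all genes called higher. Their summed levels were 26.5 to 731 FPKM with saline and 74.0 to 775 with Ang II. Their part in the rise of the mitotic genes was not tested.

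**Figure D2:**
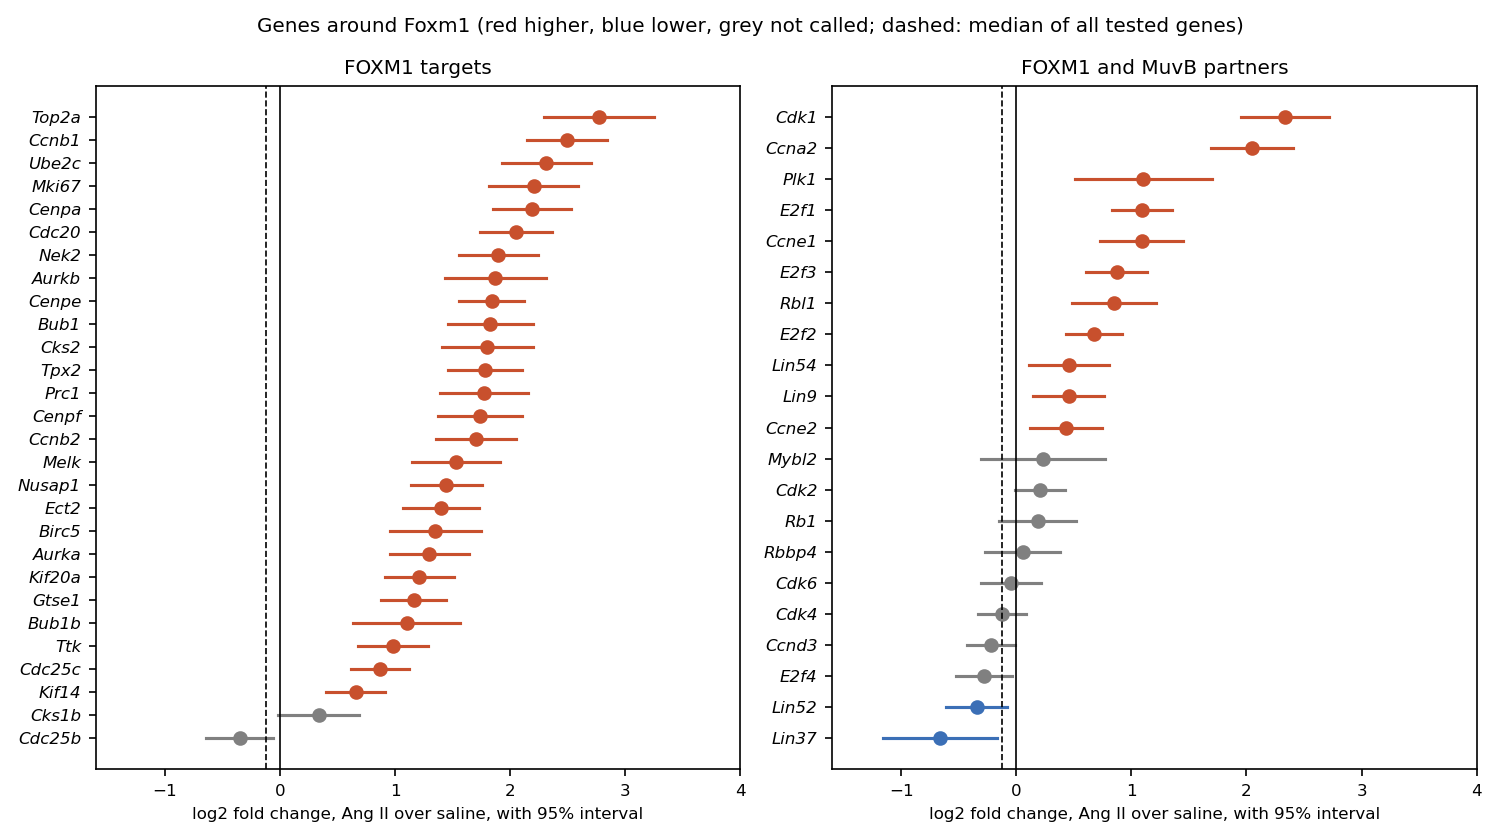
Log2 fold change with its 95% interval (horizontal axes, Ang II over saline on log2(FPKM + 1)) for 28 genes that FOXM1 activates (left) and 21 of its partners (right), red for higher, blue for lower and grey for not called. Of the 28 genes 26 lie to the right of 0 in red, while the partners include 11 red, 2 blue and 8 grey points.

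The CHR element reads TTTGAA, and it was searched on both strands of RefSeq promoters (GRCm38.p6, 250 bases before to 50 after the start). Of the 28 genes 24 were matched, with 27 promoters, and 16 of these (59.3%) held the element, against 17.9% of all 32851 promoters. The 6 genes whose element fell in the 100 bases before the start are printed here in the direction of transcription, with the element in capitals on either strand (TTCAAA where it reads on the opposite strand).
Cdc20, chr4:118437344-118437443, reverse strand: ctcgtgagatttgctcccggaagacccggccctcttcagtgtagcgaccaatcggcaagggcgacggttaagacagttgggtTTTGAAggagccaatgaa
Cks1b, chr3:89418292-89418391, reverse strand: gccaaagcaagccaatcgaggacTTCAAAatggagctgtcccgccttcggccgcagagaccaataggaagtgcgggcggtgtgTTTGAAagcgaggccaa
Mki67, chr7:135716380-135716479, reverse strand: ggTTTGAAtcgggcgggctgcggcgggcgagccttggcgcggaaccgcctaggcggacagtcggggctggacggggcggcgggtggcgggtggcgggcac
Prc1, chr7:80294376-80294475, forward strand: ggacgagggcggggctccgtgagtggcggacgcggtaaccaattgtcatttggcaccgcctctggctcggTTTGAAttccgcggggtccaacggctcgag
Top2a, chr11:99024190-99024289, reverse strand: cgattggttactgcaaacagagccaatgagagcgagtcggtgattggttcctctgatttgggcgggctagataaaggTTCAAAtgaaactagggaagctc
Ube2c, chr2:164769829-164769928, forward strand: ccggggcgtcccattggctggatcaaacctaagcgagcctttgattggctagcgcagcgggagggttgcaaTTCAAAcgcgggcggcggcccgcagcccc
These 6 genes were picked by the position of the element, not by their values. In Cdc20, Cks1b, Top2a, Ube2c and Prc1 an element began 17 to 30 bases before the start, and in Mki67 it began 98 bases before it. Top2a, the topoisomerase of mitotic chromosomes, rose by 2.77, from 1.88 ± 0.734 to 19.4 ± 7.34 FPKM. Ube2c, a ubiquitin-conjugating enzyme of mitotic exit, rose by 2.32, from 0.776 ± 0.362 to 8.06 ± 2.92 FPKM. Mki67, the proliferation antigen Ki-67, rose by 2.20, and Prc1, a protein of the central spindle, rose by 1.78. In Ube2c 22.8% and in Prc1 11.1% of the exon bases lie in another gene model. Cks1b, with 2 elements in its window, is the gene of the 6 that was not called.

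Foxf1, a factor of lung, gut and vascular mesenchyme, lies at chr8:121084386-121088144 (GRCm38, forward strand) and had the largest fall of the 19 forkhead genes tested. It was at 7.57, 13.3 and 21.2 FPKM in the lowest, median and highest saline library and at 3.71, 4.25 and 6.72 with Ang II. Every Ang II library was below every saline library, Saline 4 being the lowest of its group and Ang II 2 the highest of the other. The level went from 14.7 ± 4.82 to 4.55 ± 0.985 FPKM, a log2 fold change of -1.45 (SE 0.18, adjusted p = 1.29e-05). These values rest on 315 to 870 reads per saline library and 159 to 256 per Ang II library. The call held under all 27 alternatives, from -1.62 to -1.32. Of 10 fibroblast markers 3 were lower and 0 higher, against 24.9% of all genes called lower, with summed levels of 364 to 733 FPKM with saline and 309 to 441 with Ang II. Pdgfra, a defining fibroblast marker, was at 4.78 ± 2.18 and 4.17 ± 1.63 FPKM (adjusted p = 0.709). The part of these cells in the fall of Foxf1 was not tested.

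Foxf2, the close relative of Foxf1, lies at chr13:31625816-31631403 and was barely detected. It was at 0.116, 0.486 and 1.74 FPKM in the lowest, median and highest saline library and at 0, 0.357 and 0.728 with Ang II, from 4 to 71 and 0 to 30 reads. The groups overlapped, and Ang II 1 was the library with no read. In the fit without a filter, where 14.4% of 31423 genes were called, its log2 fold change was -0.21 (SE 0.17, adjusted p = 0.519), so a change was not detectable at this depth. Its size was unsteady, at -0.09 without Saline 4, -0.55 with a pseudocount of 0.1 and -0.74 with voom on recovered reads, and it did not pass in any alternative run.

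Foxf1 sits in a cluster with other forkhead genes. The neighbours named here were chosen by position after their values were seen. Fendrr, a long non-coding RNA transcribed away from Foxf1, starts 1276 bases from it and has no exon base in common with another gene model. It was between 0.889 and 5.85 FPKM with saline and between 0.254 and 1.22 with Ang II. Of the 8 saline libraries 7 were above every Ang II library. Fendrr fell from 3.24 ± 1.49 to 0.737 ± 0.361 FPKM, a log2 fold change of -1.23 (SE 0.22, adjusted p = 0.000421). Mthfsd, 24.0 kb from the start of Foxf1, was not called (-0.28, adjusted p = 0.113), nor was Foxc2 at 31.8 kb (-0.01, adjusted p = 0.977) or Foxl1 at 43.6 kb (-0.12, adjusted p = 0.453). Whether Foxf1 and Foxc2 changed by different amounts was not tested. In the cluster on chromosome 13, Foxf2 lies 181 kb before Foxc1, and Foxq1, at 0.0920 ± 0.0536 FPKM with saline, was too low to test.

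**Figure D3:**
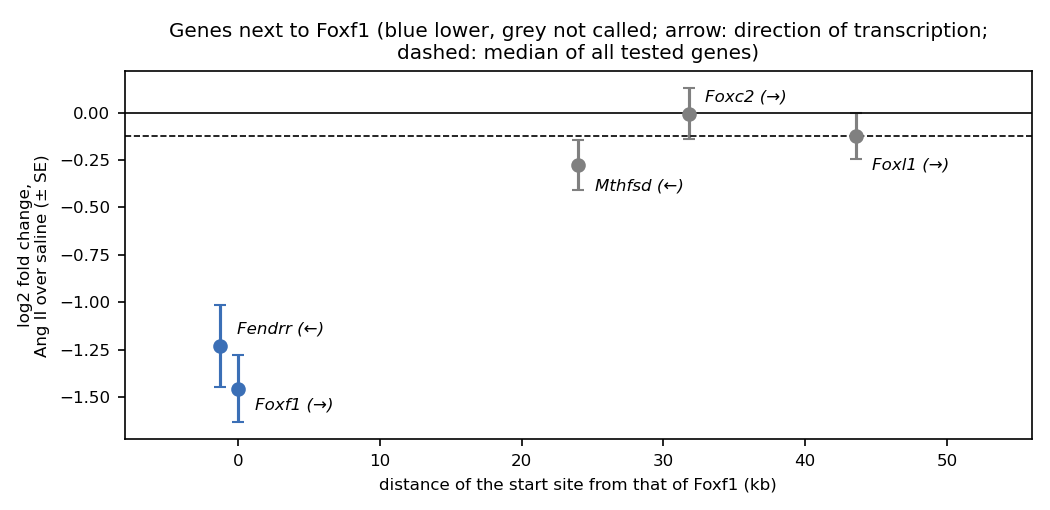
Log2 fold change ± SE (vertical axis, Ang II over saline) of genes around Foxf1 against the distance of their start site from that of Foxf1 in kb (horizontal axis), with arrows for the direction of transcription. Foxf1 and Fendrr, 1276 bases apart, lie at -1.45 and -1.23, while Mthfsd, Foxc2 and Foxl1 lie between -0.28 and -0.01 and were not called.

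Hedgehog signalling induces FOXF genes in mesenchyme, and 15 of the 17 listed pathway genes were tested. Of these 1 was higher, 3 were lower and 11 were not called (median -0.17). Of all genes 34.5% were called, 9.54% higher and 24.9% lower. Gli1, a transcription factor that is itself switched on by the pathway, ranged from 9.72 to 43.6 FPKM with saline and from 2.93 to 8.80 with Ang II, with no overlap. Its log2 fold change was -1.81 (SE 0.28, adjusted p = 0.000148), and 6.55% of its exon bases lie in other gene models. The coreceptor gene Boc was called lower at -0.38 (adjusted p = 0.0310), a call lost under median ratio scaling (-0.25, adjusted p = 0.102) and in several of the analyses leaving out 1 library. Gli3, the factor with the main repressor form, rose from 2.71 ± 0.399 to 3.88 ± 0.440 FPKM (0.40, adjusted p = 0.00556). The ligand gene Shh was below 0.5 FPKM in every library. Without Saline 2, Saline 7 and Saline 8, 6 genes of the list were lower, where 3946 of all 15007 genes were lower.

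Foxc1 and Foxc2, which shape vessels and mural cells in development, were expressed at like levels. Foxc1 (chr13:31806633-31812476, forward strand) was at 13.8, 26.8 and 37.7 FPKM in the lowest, median and highest saline library and at 15.3, 19.9 and 23.2 with Ang II. Of the 8 saline libraries 6 were above every Ang II library, but Saline 8 was the lowest of all 16 and Saline 7 lay among the Ang II libraries. The log2 fold change was -0.39 (SE 0.15, adjusted p = 0.0617), which did not pass. Without Saline 8 it was -0.51 (adjusted p = 0.00239), without Saline 7 and Saline 8 it was -0.56 (adjusted p = 0.000849), and without Saline 2 as well it was -0.59 (adjusted p = 0.000961). Over the 27 alternatives the adjusted p ran up to 0.193, under median ratio scaling.

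Foxc2 (chr8:121116171-121118895, forward strand) was at 19.1, 31.5 and 41.2 FPKM in the lowest, median and highest saline library and at 23.0, 30.2 and 37.5 with Ang II. The groups covered each other, with Saline 8 lowest and Saline 7 highest. The log2 fold change was -0.01 with a 95% interval from -0.29 to 0.28 (adjusted p = 0.977), and 0.14 under median ratio scaling, so no direction can be given.

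Of 23 genes listed as partners or targets of FOXC factors in vessels, 19 were tested. Of these 3 rose, 4 fell and 12 did not pass, with a median of -0.01. The 7 calls among 19 are near the 34.5% called among all genes, 9.54% higher and 24.9% lower. Gja1, the gap junction protein connexin 43, rose from 48.7 ± 18.0 to 176 ± 33.0 FPKM (1.90, SE 0.21, adjusted p = 5.44e-06), with no overlap between the groups. Fgf2, a growth factor of smooth muscle, rose by 1.06 (adjusted p = 0.00341), with 13.2% of its exon bases in other gene models, Nudt6 among them. Ets1, an endothelial and smooth muscle factor, rose by 0.56 (adjusted p = 0.0252), a call lost without Saline 7 and Saline 8 (0.32, adjusted p = 0.0622). Tbx1, a T-box factor of the cardiac outflow tract, fell from 11.8 ± 4.85 to 4.40 ± 1.396 FPKM (-1.20, SE 0.20, adjusted p = 0.000280). Tbx2 fell from 5.11 ± 2.35 to 2.32 ± 0.444 FPKM (-0.82, SE 0.17, adjusted p = 0.00170). Angpt2, a ligand of the TIE2 receptor, fell by 0.90 (adjusted p = 0.0134). The Notch genes on the list were not called, and Dll4 was at 2.44 ± 1.06 and 2.36 ± 0.803 FPKM. Of 12 endothelial markers 1 was higher and 2 were lower, against 9.54% and 24.9% of all genes. These markers varied among libraries, summing to 685 to 1780 FPKM with saline and 266 to 1560 with Ang II. Their part in the values of the FOXC genes was not tested.

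The FOXO genes encode the factors that AKT restrains. Foxo1 (chr3:52268336-52353221, forward strand) was at 4.61, 6.21 and 7.43 FPKM in the lowest, median and highest saline library and at 3.401, 5.77 and 7.82 with Ang II. The groups covered each other, and the log2 fold change was -0.12 (SE 0.13, adjusted p = 0.5003), equal to the median gene and 0.003 under median ratio scaling. Of its exon bases 7.78% lie in another gene model.

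Foxo3 (chr10:42181841-42276755, reverse strand) was at 20.5, 29.6 and 36.9 FPKM in the lowest, median and highest saline library and at 14.7, 19.4 and 34.6 with Ang II. Of the Ang II libraries 5 were below every saline library, while Ang II 8 was above all but Saline 3. The log2 fold change was -0.41 (SE 0.17, adjusted p = 0.0722), which did not pass. It passed without Ang II 8 (-0.51, adjusted p = 0.0177), without Ang II 6 (-0.47, adjusted p = 0.0483) and without Saline 2, Saline 7 and Saline 8 (-0.51, adjusted p = 0.0429).

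Upstream of the FOXO factors, 23 regulators were tested: 1 rose, 3 fell and 19 did not pass. The 4 calls among 23 compare with 34.5% of all genes called, 9.54% higher and 24.9% lower. Insr, the insulin receptor gene, fell from 40.7 ± 7.47 to 26.5 ± 4.66 FPKM (-0.60, SE 0.13, adjusted p = 0.00183). Mdm2, a ubiquitin ligase that acts on p53 and on FOXO proteins, rose from 32.6 ± 4.79 to 42.9 ± 5.62 FPKM (0.39, SE 0.10, adjusted p = 0.00796). Akt2 (-0.29, adjusted p = 0.00622) and Pik3ca (-0.25, adjusted p = 0.0298), the kinases that restrain FOXO, were called lower, but not under median ratio scaling. Under that scaling 5 regulators were higher and 1 was lower, where 2238 of all 15007 genes were higher and 2114 lower.

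Of 24 listed FOXO targets 23 were tested: 3 rose, 4 fell and 16 did not pass, with a median of 0.02. The 7 calls among 23 compare with 34.5% of all genes called, 9.54% higher and 24.9% lower. Txnip, an inhibitor of thioredoxin and of glucose uptake, ranged from 357 to 629 FPKM with saline and from 127 to 316 with Ang II, with no overlap. Its log2 fold change was -1.19 (SE 0.18, adjusted p = 0.000121), and 19.4% of its exon bases lie in another gene model, Gm15441. Sesn1, a sestrin of the stress response, fell by 0.54 (adjusted p = 0.00651), and Gabarapl1, an autophagy protein, fell by 0.48 (adjusted p = 0.00282), a call lost under quantile normalization (-0.29, adjusted p = 0.0646). In Gabarapl1 28.3% of the exon bases lie in another gene model. The cell cycle inhibitor Cdkn1b was called lower at -0.39 (adjusted p = 0.0324), a call lost under median ratio scaling (-0.25, adjusted p = 0.121). In the other direction, the inhibitor Cdkn1a rose from 33.5 ± 16.7 to 71.0 ± 36.1 FPKM (1.05, SE 0.27, adjusted p = 0.00686). Bcl6, a transcriptional repressor, rose by 0.95 (adjusted p = 0.0178), and Gadd45a, a DNA damage response gene, rose by 0.77 (adjusted p = 0.0187). With the Wilcoxon test both missed the threshold (adjusted p = 0.0573), and Gadd45a also did without Saline 2, Saline 7 and Saline 8 (0.62, adjusted p = 0.0767). In Cdkn1a 7.68% and in Gadd45a 19.1% of the exon bases lie in another gene model. The 2 inhibitors of cyclin-dependent kinases on the list were called in opposite directions. Without Saline 2, Saline 7 and Saline 8, 2 targets were higher and 9 were lower. In that run 1200 of all 15007 genes were higher and 3946 lower.

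The full forkhead consensus TGTTTAC, searched on both strands, occurred in 4 of 23 promoters of these targets (17.4%, 19 genes matched) and in 3.65% of all promoters. In the 27 promoters of the FOXM1 targets the same consensus occurred in 1 (3.70%), near the share of all promoters. The 250 bases before the start of Txnip are printed because Txnip was the target whose groups did not overlap. Capitals mark the consensus, which reads on the opposite strand 121 bases before the start.
Txnip, chr3:96557707-96557956, forward strand: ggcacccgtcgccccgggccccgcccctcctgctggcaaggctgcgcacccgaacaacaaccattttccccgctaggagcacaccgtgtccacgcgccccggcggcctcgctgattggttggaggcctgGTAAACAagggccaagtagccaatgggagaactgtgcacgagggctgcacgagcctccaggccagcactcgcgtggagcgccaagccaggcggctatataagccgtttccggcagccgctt
A match of letters does not show that a forkhead protein binds there.

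Foxp2 and Foxp1 encode repressors that pair with each other. Foxp2 (chr6:14901349-15441977, forward strand) was at 28.7, 39.3 and 76.0 FPKM in the lowest, median and highest saline library and at 18.0, 22.3 and 30.9 with Ang II. Of the Ang II libraries 7 were below every saline library, Ang II 8 being the exception, and the highest saline values were those of Saline 8, Saline 2 and Saline 7. The level fell from 43.9 ± 16.04 to 22.7 ± 4.21 FPKM, a log2 fold change of -0.87 (SE 0.18, adjusted p = 0.00145). The call held under all 27 alternatives, and without Saline 2, Saline 7 and Saline 8 the log2 fold change was -0.57 (adjusted p = 0.00329).

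Foxp1 (chr6:98925338-99522721, reverse strand) was at 84.9, 97.1 and 192 FPKM in the lowest, median and highest saline library and at 64.4, 88.1 and 104 with Ang II. The groups overlapped, with Saline 8 at 192 far above Saline 7 at 124. The log2 fold change was -0.29 (SE 0.15, adjusted p = 0.136). Without Saline 8 it was -0.17 (adjusted p = 0.218), and without Saline 2, Saline 7 and Saline 8 it was -0.10 (adjusted p = 0.450). It did not pass in any of the 27 alternatives, which ran from -0.34 to -0.05. The 3 saline libraries in which Foxp2 was highest are those that stand apart in the data as a whole. Brown adipocyte markers summed to 215 FPKM in Saline 8, 156 in Saline 2 and 25.7 in Saline 7. They summed to 16.7 to 90.1 in the other saline libraries and to 7.53 to 33.7 with Ang II. White adipocyte markers summed to 192 to 700 FPKM with saline, highest in Saline 8, and to 118 to 302 with Ang II. Of 9 brown and 14 white markers listed, 6 and 12 were tested, with 2 and 4 of these lower, against 24.9% of all genes. Their part in the Foxp2 values was not tested.

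The corepressors that FOXP proteins recruit were followed in 18 genes, of which 0 rose, 7 fell and 11 did not pass with limma, with a median of -0.18. Of all genes 34.5% were called, 9.54% higher and 24.9% lower, and their median was -0.12. At an unadjusted p under 0.05, 0 were higher, as with the Wilcoxon test and voom. Mta2, a subunit of the NuRD complex, went from 85.1 ± 3.99 to 67.7 ± 3.31 FPKM (-0.33, SE 0.07, adjusted p = 0.00150), with no overlap. Chd3, a remodelling enzyme of the same complex, went from 135 ± 20.1 to 93.9 ± 14.5 FPKM (-0.52, adjusted p = 0.00244), and Mta1 changed by -0.51 (adjusted p = 0.00567). The Chd3 call was lost under quantile normalization (-0.30, adjusted p = 0.0637). Under median ratio scaling, quantile normalization and voom on recovered reads 1 gene of the list was lower, where 2114, 2374 and 1933 of all genes were lower. Mta2 was then at -0.18 (adjusted p = 0.0544) under median ratio scaling.

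Foxs1 (chr2:152931898-152933208, reverse strand), known from perivascular cells, varied widely within both groups. It was at 8.30, 12.2 and 38.7 FPKM in the lowest, median and highest saline library and at 10.9, 16.9 and 31.8 with Ang II. Saline 7 and Saline 8, at 38.7 and 27.0 FPKM, were above the other 6 saline libraries, which reached 14.9. The log2 fold change was 0.27 (SE 0.28, adjusted p = 0.487). Without Saline 7 and Saline 8 it was 0.62 (SE 0.21, adjusted p = 0.0299), a call of higher. Pericyte markers ran the other way in those libraries, summing to 470 and 573 FPKM in Saline 7 and Saline 8, against 721 to 1846 in the other saline libraries and 676 to 1049 with Ang II. Of the pericyte markers tested, 1 was higher, 2 were lower and 4 were not called, against 9.54% of all genes higher and 24.9% lower. The part of these markers in the values of Foxs1 was not tested.

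Among the 34 other forkhead genes 10 passed the filter, of which 0 rose, 4 fell and 6 did not pass with limma, and the groups did not overlap for 3. Among all genes 34.5% were called, 24.9% lower, and 8.36% did not overlap. At an unadjusted p under 0.05, 0 were higher, as with the Wilcoxon test and voom. Foxo4, a relative of Foxo1 and Foxo3, had the smallest SE of the 19 forkhead genes tested and went from 33.5 ± 2.84 to 22.04 ± 1.21 FPKM (-0.58, SE 0.08, adjusted p = 2.4e-05), with the groups apart. Foxn3 fell from 73.7 ± 8.65 to 53.5 ± 6.75 FPKM (-0.46, adjusted p = 0.00186) and Foxj2 from 18.9 ± 1.09 to 13.9 ± 1.78 FPKM (-0.43, adjusted p = 0.00144), both without overlap. These 3 calls held under all 27 alternatives. Foxp4, the relative of Foxp1 and Foxp2, was called lower at -0.67 (adjusted p = 0.0133), a call lost without Saline 2, Saline 7 and Saline 8 (-0.37, adjusted p = 0.0580) and under median ratio scaling (-0.52, adjusted p = 0.0629). Of the 24 genes under the filter, 6 were at 0 in all libraries and none exceeded 0.660 FPKM in any library.

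**Figure D4:**
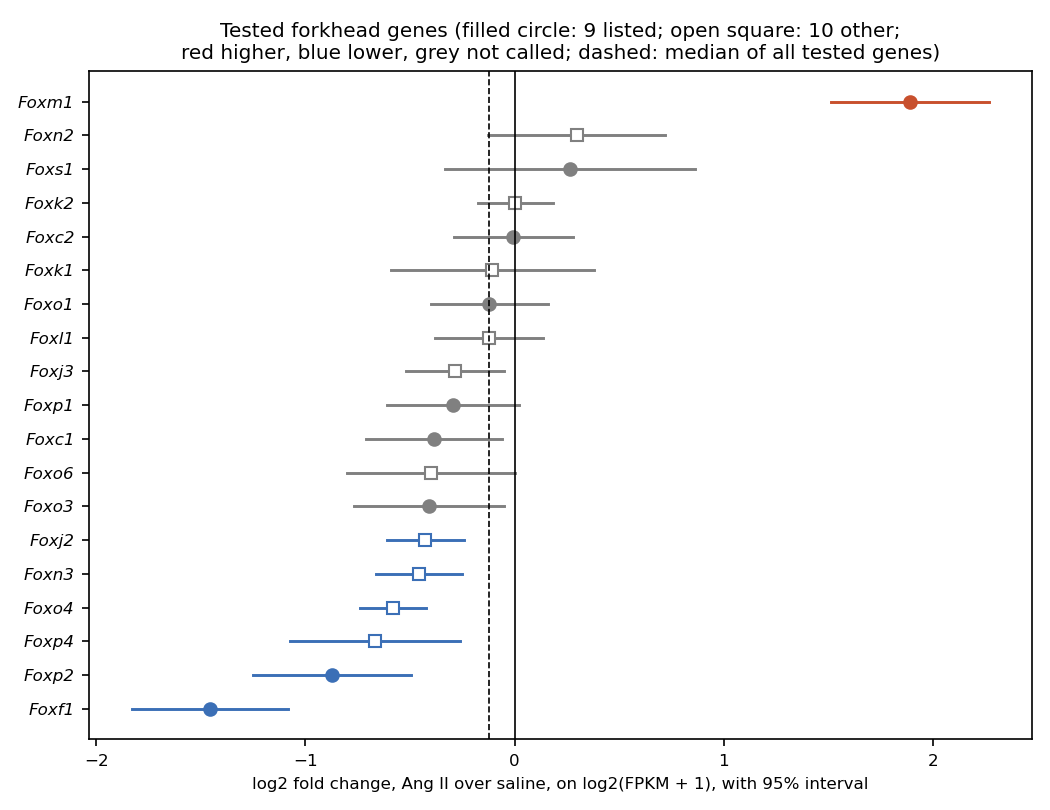
Log2 fold change with its 95% interval (horizontal axis, Ang II over saline on log2(FPKM + 1)) for the 19 forkhead genes tested, with filled circles for the 9 genes described above and open squares for 10 others, red for higher, blue for lower and grey for not called. Foxm1 stands alone on the right at 1.89, and of the 6 genes called lower Foxf1 lies farthest left at -1.45.

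The response of close relatives was compared directly by the log2 ratio of their levels within each library, which does not depend on the scaling of the library apart from the pseudocount. Exact two-sided permutation tests over 12870 assignments of 8 and 8 libraries were run for 4 ratios, with adjustment over the 4. The ratio of Foxf1 to Foxf2 went from 3.28 ± 0.826 to 2.03 ± 0.426, a difference of -1.25 (exact permutation p = 0.00342, adjusted 0.00684). Foxf2 is so low that this ratio follows Foxf1, and with a pseudocount of 0.1 the difference was -1.07 (exact permutation adjusted p = 0.154). The ratio of Foxp1 to Foxp2 went from 1.32 ± 0.276 to 1.89 ± 0.326, a difference of 0.58 (exact permutation p = 0.00233, adjusted 0.00684), and 6 of 8 Ang II libraries were above every saline library. Foxp2 fell relative to Foxp1.

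The ratio of Foxc1 to Foxc2 was at -0.87, -0.12 and 0.09 in the lowest, median and highest saline library and at -0.82, -0.65 and -0.31 with Ang II. Saline 7 was lowest and the groups overlapped. The difference was -0.38 (exact permutation p = 0.0103, adjusted 0.0137), so Foxc1 fell relative to Foxc2 although neither gene passed on its own. The ratio of Foxo1 to Foxo3 went from -1.97 ± 0.256 to -1.69 ± 0.427, a difference of 0.29 (exact permutation p = 0.124, adjusted 0.124). Without Ang II 8 that difference was 0.41 (exact permutation adjusted p = 0.0157).

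**Figure D5:**
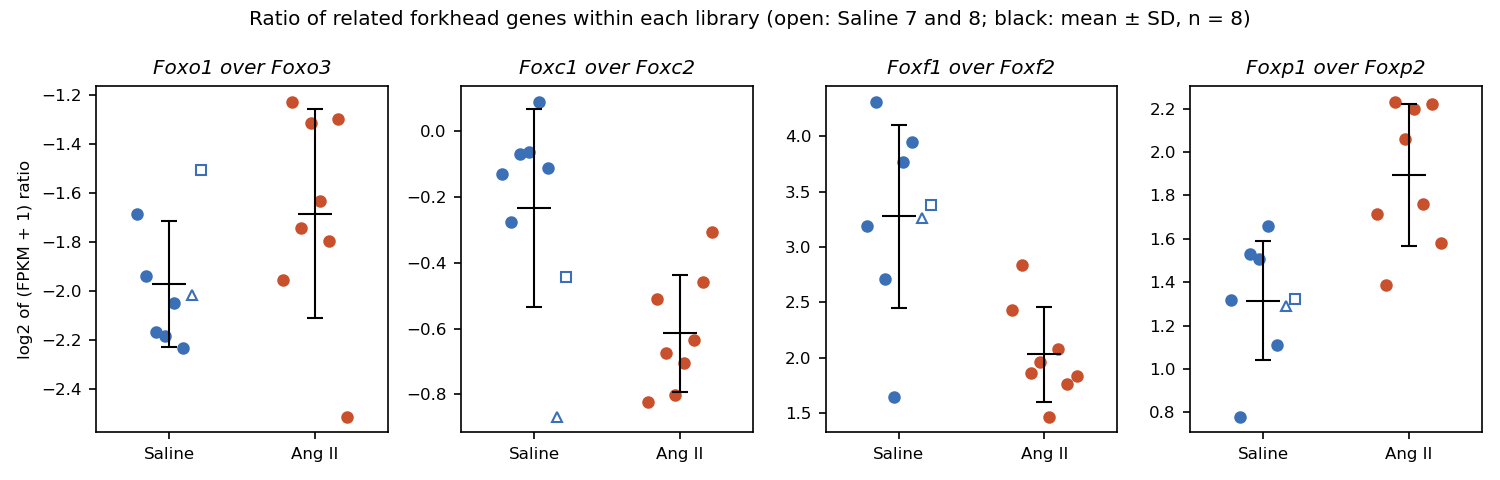
Log2 ratio of (FPKM + 1) of related forkhead genes in each library (vertical axes) for 8 saline libraries (blue, Saline 7 and Saline 8 open) and 8 Ang II libraries (red), with mean ± SD in black. The ratio of Foxf1 to Foxf2 and that of Foxc1 to Foxc2 are lower with Ang II, that of Foxp1 to Foxp2 is higher, and that of Foxo1 to Foxo3 did not pass.

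The genes whose levels followed each forkhead gene most closely from library to library were found by Pearson correlation of deviations from the group means over 16 libraries, among 10965 genes. Every such correlation is a description of 16 points that share library depth and tissue makeup. Foxm1 was followed most closely by Chaf1b, a histone chaperone subunit of replicating chromatin (r = 0.860), and by the mitotic kinase gene Aurka (r = 0.826). Foxf1 was followed by Tesc (r = 0.866) and Atp5s (r = 0.787), Foxp2 by Trpt1 (r = 0.948) and Trmt1l (r = 0.945), and Foxp1 by Tanc2 (r = 0.907) and Ube3a (r = 0.897). Foxc1 was followed by Rai2 (r = 0.917) and Zfp385b (r = 0.904), Foxc2 by Srsf9 (r = 0.820), Foxo1 by the laminin gene Lamb2 (r = 0.873), Foxo3 by Prrg3 (r = 0.882) and Foxs1 by Cav3, a caveolin of muscle (r = 0.933). The median over all these genes of the highest such correlation was 0.934, and of the forkhead genes Foxp2 alone had an r above it. Among the forkhead genes themselves, Foxc1 and Foxc2 (r = 0.660) and Foxp1 and Foxp2 (r = 0.631) varied most alike, and Foxc1 and Foxp1 (r = -0.714) most opposite. Saline 8 was at an extreme of its group for Foxc1, Foxc2, Foxp1 and Foxp2.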

How the data were processed

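RNA-seq of 16 aorta libraries was used, 8 per group, with groups and replicate numbers from the sample titles. The authors deposited 1 table of FPKM values, per the file headers, and the submitters' processing notes name GRCm38 (mm10) as the build. For the aligner, the counter and the use of strand, the answer is not given in the sources used here. Dividing each FPKM by the worth of 1 read gave whole numbers (95.8% to 96.3% of values within 0.02 of a read), so that reads could be recovered for 30425 of 31423 genes above 0. Of the gene IDs 99.8% were found in GENCODE M21.

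The main test was limma 3.58.1 (R 4.3.3) with trend=TRUE on log2(FPKM + 1), pseudocount 1, over genes with a mean of at least 0.5 FPKM, two-sided, adjusted by Benjamini-Hochberg and called under 0.05. Errors with FPKM are SDs over 8 libraries. Foxf2 took its value from the fit without the filter. Permutation tests used Python 3.11.15 with numpy 2.4.6. Tests were checked on simulated data. The 56 within-group pairs of libraries held no copy: chi-square over its degrees of freedom was at least 19.8.

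The alternatives were a pseudocount of 0.1, no filter, a mean of at least 1 FPKM, median ratio scaling, quantile normalization, the replicate block, sample weights, a Wilcoxon test, voom on recovered reads with median ratio library sizes, leaving out each library, and leaving out the libraries that stand apart. The genes, the 7 pathway lists and the 13 marker lists were chosen with earlier results of these data known, the rise of mitotic genes among them, so their counts are descriptions. The named genes were the 10 forkhead genes, defining markers, up to 8 other forkhead genes called, up to 3 list members in each direction with the smallest adjusted p at 1 FPKM or more, and the 2 genes most like each forkhead gene. Fendrr, Mthfsd, Foxl1, Cdc25b, Cks1b, Dll4 and the genes with printed promoters were named outside this rule. Some sequences and a gene that these rules took are not reported here.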

Additional observations from a re-analysis of the deposited data

Results flagged for a closer look

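Dixon's test for a single stray value in a group of 8 was applied to 50 groups of values of the forkhead genes, Fendrr and the 4 ratios, where chance alone marks about 1 group in 20, and it marked 4. Foxp1 was at 192 FPKM in Saline 8, with the next saline library at 124. Foxf1 was at 6.72 FPKM in Ang II 2, with the next Ang II library at 5.06, and still below every saline library. Foxn2, a forkhead gene that was not called, was lowest in Ang II 2 at 6.81 FPKM, with the next library at 8.67. Foxo6, a FOXO relative with low expression, was at 3.37 FPKM in Ang II 4, with the next library at 1.84.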

How the results depend on the processing

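The calls of Foxm1 (higher), Foxf1 and Foxp2 (lower) held under each of the 27 alternatives. Under median ratio scaling 2238 genes were higher and 2114 lower, under quantile normalization 2270 and 2374, and with voom on recovered reads 2121 and 1933, against 1431 and 3741. Foxo1 changed sign at 0.0025 under median ratio scaling, and Foxc2 was at 0.14 under each of the 3. Leaving out single libraries gave Foxc2 values from -0.10 to 0.054, called in none of them. Of the forkhead genes, 2 were higher and 4 lower with sample weights and without Saline 2, Saline 7 and Saline 8, and 2 were higher without Saline 7 and Saline 8. With sample weights Foxo3 (-0.53), Foxc1 (-0.53) and Foxs1 (0.56) passed, and without the 3 libraries they passed at -0.51, -0.59 and 0.61. Without Saline 7 and Saline 8 Foxc1 (-0.56) and Foxs1 (0.62) passed. Leaving out single libraries gave Foxc1 from -0.51 to -0.31, passing without Saline 8, and Foxo3 from -0.51 to -0.35, passing without Ang II 6 or Ang II 8. The difference in the ratio of Foxo1 to Foxo3 ran from 0.22 to 0.41 and passed without Ang II 8. That of Foxf1 to Foxf2 was lost with a pseudocount of 0.1 (-1.07). Foxf2 gave no value at a mean of at least 1 FPKM.

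FOXO regulators numbered 5 higher and 1 lower under median ratio scaling and voom, 4 and 1 under quantile normalization, 2 higher with the replicate block, 2 higher and 6 lower with sample weights, and 5 lower both without Saline 7 and Saline 8 and without Saline 2 as well. FOXO targets numbered 1 higher with the Wilcoxon test, 2 lower under quantile normalization, 8 lower with sample weights, 7 lower without Saline 7 and Saline 8 and 9 lower without Saline 2 as well. FOXM1 partners numbered 0 lower under median ratio scaling, quantile normalization, voom and no filter, and 1 lower with the replicate block and without Saline 7 and Saline 8. FOXP corepressors numbered 1 lower under the 3 scalings and 4 lower with the replicate block. Hedgehog genes numbered 2 higher under the 3 scalings, 5 lower with sample weights and 6 lower without the 3 libraries. FOXC partners numbered 5 higher with voom. Leaving out single libraries gave 0 to 3 FOXM1 partners lower, 0 to 1 FOXM1 targets lower, 1 to 2 FOXO regulators higher and 1 to 2 Hedgehog genes higher. Of all 15007 genes, 1688 were higher and 5050 lower with sample weights, and 1373 and 3633 with the Wilcoxon test. Without Saline 7 and Saline 8 the counts were 1265 and 3988, and without Saline 2 as well 1200 and 3946. The causes of these changes were not tested.

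The labels do not say whether replicate numbers pair the samples. Same-numbered libraries correlated at -0.246 to 0.385 in their deviations, and 2 of 8 numbers correlated best with their own, which does not settle it. With the replicate block 1414 genes were higher and 3531 lower. Depth limits Foxf2 (0 to 71 reads per library) and Foxm1 with saline (23 to 60 reads).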
